A study of Mus musculus with 2 samples.

Results

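The cells described here are progenitors of the embryonic mouse septum that contain transcripts of Fgf8 and Fgf17, the secreted fibroblast growth factors made at the rostral midline of the telencephalon. They were chosen by their counts of unique molecular identifiers (UMIs), the tags that mark each captured transcript molecule. A cell barcode was kept when fewer than 4% of its UMIs were mitochondrial and when the sum A of 7 progenitor genes (Sox2, Hes1, Hes5, Vim, Nes, Fabp7, Slc1a3) exceeded the sum N of 6 neuronal genes (Tubb3, Stmn2, Dcx, Elavl3, Gap43, Mapt). It also had to hold at least 3 UMIs of Fgf8 and Fgf17 together and at most 1 UMI of Wnt3a, Wnt2b and Rspo2, which mark the cortical hem. This left 1136 cells of 3807 progenitor cells of the septal explants, a share of 29.8% (exact 95% interval 28.4 to 31.3), and of 20110 barcodes in the series. Fgf8 and Fgf17 chose the cells, so their levels describe the choice: the 1136 cells, called Fgf8/Fgf17 progenitors below, held 89.5% of the Fgf8 UMIs and 89.5% of the Fgf17 UMIs of all barcodes with a mitochondrial share under 4%. Of the other markers given for these cells, Six3 and Six6, neither was used by the rule and both were higher than in the other 2671 progenitor cells.

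FGF8 and FGF17 signal through FGF receptors and the Ras-MAPK cascade, and at the rostral end of the neural tube they act as an organiser for the front of the forebrain. Cells that receive the signal make ETS transcription factors (Etv1, Etv4, Etv5) and feedback inhibitors of the same cascade, among them the Sprouty proteins, the MAPK phosphatase Dusp6 and the membrane protein Il17rd. In the telencephalon this source lies at the midline where the septum forms, facing the cortical hem, which makes WNTs and BMPs at the opposite end of the medial wall.

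The septal explants were pooled from 8 PGK-Cre;Rosa26-YFP embryos at E11.5 and 4 Dbx1-Cre;Rosa26-tdTomato embryos at E12.5, from 2 litters each, on the C57BL/6J strain, with wild-type as their genotype in the labels. PGK-Cre acts in all cells, so that YFP marks the E11.5 embryos as a whole, whereas Dbx1-Cre marks cells derived from Dbx1-expressing progenitors of the E12.5 embryos. The series also holds 1 library of the whole telencephalic vesicle of wild-type C57BL/6J embryos, labelled E12, without reporters. Each condition is 1 library, so that no test between conditions or cells was possible, and cells are not replicates. Levels are the CPM (UMIs of a gene scaled to a fixed total) of a group of cells with an exact Poisson 95% interval, and ratios carry an exact conditional binomial 95% interval. Both cover counting error only, and the spread between embryos is not known.

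The Fgf8/Fgf17 progenitors held 17100415 UMIs in all, with a median of 13357.5 UMIs and 3749.5 genes per cell. The other progenitor cells held 41895564 UMIs with a median of 14218 UMIs and 3798 genes, so that the depth per cell differed little. Median mitochondrial shares were 2.23% and 2.03%. A gene was counted as measured when at least 20 UMIs were expected in the Fgf8/Fgf17 progenitors from the pooled level, whatever its direction, and the 18 genes of the rule were left out. Of 11912 measured genes, 444 were at least 2-fold higher in the Fgf8/Fgf17 progenitors (3.73% of measured genes) and 298 were at least 2-fold lower (2.5%). The median log2 ratio over all measured genes was 0.05. These 2 shares and this median are the values to set beside each gene list of the septal explants below.

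The gate on A and N also let through barcodes with UMIs of blood, macrophage, mesenchyme or endothelium genes, called non-neural barcodes below. Globin alone passed 5% in 4 of the Fgf8/Fgf17 progenitors and 52 of the others. Whether these barcodes are non-neural cells or neural cells mixed with RNA of other cells was not tested. Of the Fgf8/Fgf17 progenitors, 17 had over 5% globin UMIs or at least 5 UMIs of macrophage, mesenchyme or endothelium markers, and so did 93 of the other progenitor cells. The 9 erythroid markers together stood at 4227 CPM in the Fgf8/Fgf17 progenitors and 22226 CPM in the others, all 9 past 2-fold lower, with Hbb-y the most abundant. The 5 measured macrophage markers were all past 2-fold lower too. Without these barcodes the counts were 448 higher and 195 lower of 11765 measured genes, 404 and 181 of which were shared with the counts over all cells. The list of higher genes therefore changed little, whereas 81 of the 298 lower genes no longer held enough UMIs to be measured. The 12 lowest ratios over all cells were those of Spi1, Cd52, Tfap2b, Ctss, Lyz2, Srgn, Fcgr3, Ccl4, Ppbp, Rac2, Ccl3 and Tyrobp, most of them genes of blood cells and macrophages. Without these barcodes the 12 lowest were Msx2, Wnt7a, Dct, Hopx, Prr15, Fam163a, Lrrtm3, Hs3st3a1, Nr2f1, Gm26777, Rapsn and Acsbg1, with ratios from 0.0946 to 0.169. Ratios and counts below are over all cells. The value without these barcodes is given where it puts a named gene on another side of 2-fold, and the counts of 13 of the 23 gene lists changed, by at most 1 gene in a direction.

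The 12 highest ratios were those of Pax8, Six6, Notum, Pax2, Fgf18, Gfra2, Pax5, Grem1, 4930426D05Rik, Pmaip1, 9230105E05Rik and Grhl3. Without non-neural barcodes Grem1 was not among the 12 highest and Cytl1 took its place. Pax2, Pax5 and Pax8 form a subfamily of paired-box transcription factors best known at the midbrain-hindbrain boundary, another FGF8 source. Pax8 stood at 10.2 CPM (8.72 to 11.8) in the Fgf8/Fgf17 progenitors and at 0.0955 CPM in the others, a ratio of 107 (40.9 to 396), with 4 UMIs in the others. Pax2 stood at 12.6 against 0.191 CPM (ratio 65.8, 32.8 to 154) and Pax5 at 16.1 against 0.501 CPM (32.2, 20.7 to 52.9). None of these genes was abundant: only Fgf18 and Pmaip1, a pro-apoptotic BH3 protein, exceeded 25 CPM among the 12. Notum, a secreted enzyme that inactivates WNT proteins, stood at 14.2 CPM against 0.215 CPM, and Grem1, a secreted BMP antagonist, at 3.92 against 0.143 CPM. Against cells chosen by hem genes, given below, Pmaip1, Grem1 and Gfra2 did not differ beyond the counting interval. 4930426D05Rik and 9230105E05Rik are annotated as antisense genes.

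Among the ligands, Fgf18 followed the genes of the rule most closely. Fgf18 stood at 40.6 CPM (37.6 to 43.7) in the Fgf8/Fgf17 progenitors and at 0.883 CPM (0.622 to 1.22) in the others, a ratio of 46.0 (33.0 to 65.8). With each cell thinned to 8000 UMIs, 22.6% of the Fgf8/Fgf17 progenitors and 0.669% of the other progenitor cells held a Fgf18 UMI. For comparison, 1 of 88 erythroid barcodes (1.14%) held it after the same thinning, the reference for free RNA. Fgf15, the most abundant ligand outside the rule, stood at 170 against 83.1 CPM (ratio 2.05, 1.95 to 2.15), and its ratio was 1.98 without non-neural barcodes. Fgf2 (ratio 1.96) and Fgf3 (1.81) stayed under 2-fold, with 2.34 and 7.37 CPM in the Fgf8/Fgf17 progenitors. The other 8 ligands listed were not measured at this depth, Fgf9 with 28 UMIs among them. Fgf8 itself stood at 474 CPM and Fgf17 at 1198 CPM, by construction.

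The receptors differed by gene. Fgfr1, the main FGF receptor of the early telencephalon, was at 96.4 CPM in the Fgf8/Fgf17 progenitors and 86.7 CPM in the others, a ratio of 1.11 (1.05 to 1.18). Fgfr2 was lower, at 0.936 against 4.54 CPM (ratio 0.206, 0.116 to 0.344), and Fgfr3, with 2 against 43 UMIs, was not measured. Of the 11 measured receptors and heparan sulphate carriers, which present FGFs to their receptors, 2 were lower and 0 were higher. Apart from Fgfr2, the lower gene was Gpc1, at 23.7 against 53.9 CPM (ratio 0.439). Gpc4 and Gpc3 had ratios of 0.547 and 1.90 (Gpc3 2.14 without non-neural barcodes).

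Of the 15 measured FGF feedback and target genes, 6 were at least 2-fold higher and 0 were lower, and their median log2 ratio was 0.94 against 0.05 over all genes. Il17rd, a membrane inhibitor of FGF signalling, stood at 83.0 CPM (78.8 to 87.5) against 16.5 CPM (15.3 to 17.8), a ratio of 5.03 (4.59 to 5.52). Spry1 stood at 247 CPM against 63.1 CPM (ratio 3.91, 3.72 to 4.10), which made it the most abundant of the list in these cells. Spry2 stood at 57.4 against 13.7 CPM (ratio 4.18, 3.77 to 4.64). Cnpy1, described as a positive regulator of FGF signalling at the midbrain-hindbrain boundary, had the highest ratio of the list, 7.95 (5.66 to 11.4), at 8.54 CPM. Etv4 (ratio 2.08) and Spry4 (2.16) were just past 2-fold.

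The remaining feedback genes stayed within 2-fold. Dusp6 and Dusp5 were at ratios of 1.92 and 1.92, Flrt3 at 1.86, Dusp4 at 1.62 and Spred3 at 1.61. Among the ETS factors, Etv5 was at 1.25 (1.16 to 1.35) and Etv1 at 1.07 (0.952 to 1.19), well under Etv4. The intervals of Il17rd, Spry1 and Spry2 lay above that of Etv4 (1.92 to 2.25), whereas that of Spry4 (1.47 to 3.18, from 53 UMIs) spanned it. Spred1 (1.45) and Spred2 (1.19) were the Sprouty-related genes nearest to 1.

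**Figure D1:**
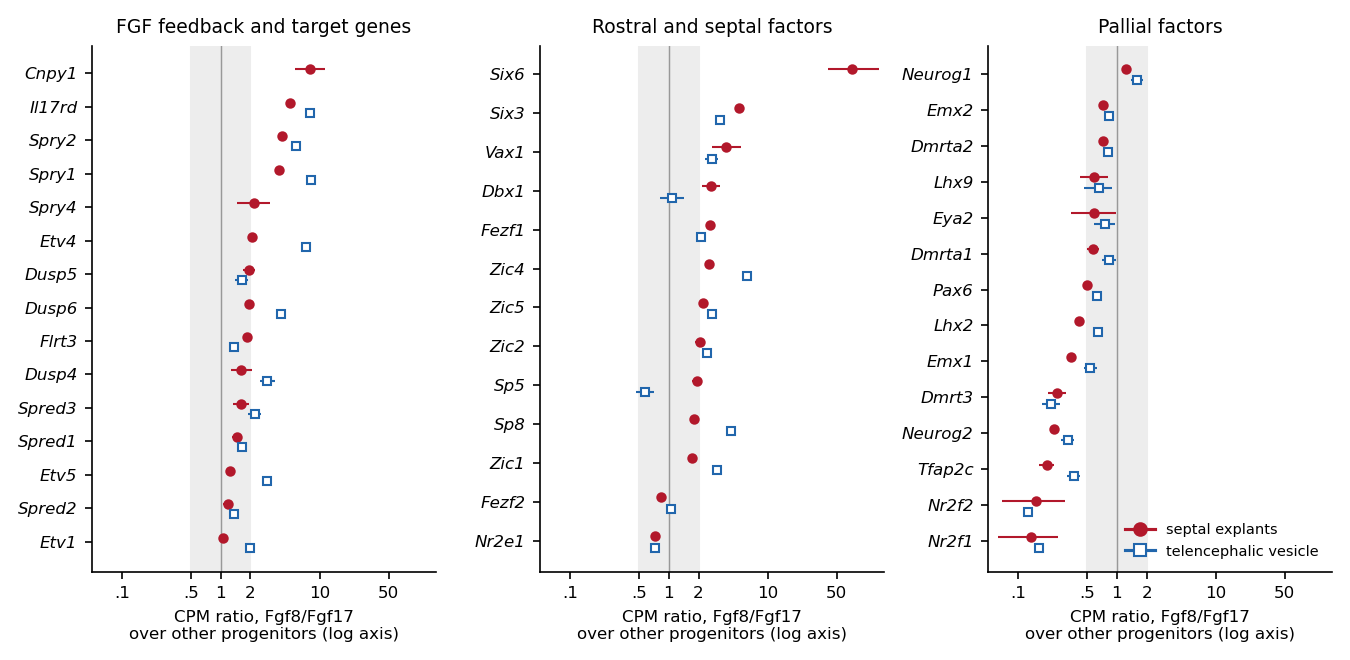
CPM ratio of Fgf8/Fgf17 progenitors over other progenitor cells (log axis) for measured genes of 3 lists, with exact 95% intervals, in the septal explants (filled circles) and in the telencephalic vesicle where the gene was measured there (open squares); the grey band spans 0.5 to 2. Il17rd (5.03), Spry2 (4.18) and Spry1 (3.91) lie right of the band, Six6 (70.7) farthest right, and Neurog2 (0.233) and Nr2f1 (0.135) left of it.

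The promoters of Spry1, Spry2, Il17rd and Six6 are printed because these genes carry the contrast and were found in RefSeq's promoter table (GRCm38.p6). Each line gives the 250 bases before the annotated start, in the direction of the gene, and the motif GGAAG, the core recognised by ETS factors, stands in capitals where it occurs on either strand.
Spry1, chr3:37639697-37639946, plus strand: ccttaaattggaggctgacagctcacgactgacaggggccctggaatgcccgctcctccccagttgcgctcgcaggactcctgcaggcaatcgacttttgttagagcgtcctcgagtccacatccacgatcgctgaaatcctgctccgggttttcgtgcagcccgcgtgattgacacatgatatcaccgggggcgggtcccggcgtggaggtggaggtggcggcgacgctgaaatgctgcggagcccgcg
Spry2, chr14:105896820-105897069, minus strand: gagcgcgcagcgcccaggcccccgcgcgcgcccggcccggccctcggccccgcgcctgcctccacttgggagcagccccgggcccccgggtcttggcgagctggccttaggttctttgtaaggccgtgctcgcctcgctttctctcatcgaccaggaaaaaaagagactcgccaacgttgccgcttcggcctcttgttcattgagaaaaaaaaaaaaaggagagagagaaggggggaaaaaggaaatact
Il17rd, chr14:27038751-27039000, plus strand: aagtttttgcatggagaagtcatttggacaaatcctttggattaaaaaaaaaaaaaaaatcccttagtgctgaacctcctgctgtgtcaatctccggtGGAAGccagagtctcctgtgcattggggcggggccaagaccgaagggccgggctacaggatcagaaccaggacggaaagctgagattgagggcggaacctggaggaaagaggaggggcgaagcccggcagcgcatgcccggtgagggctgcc
Six6, chr12:72939632-72939881, plus strand: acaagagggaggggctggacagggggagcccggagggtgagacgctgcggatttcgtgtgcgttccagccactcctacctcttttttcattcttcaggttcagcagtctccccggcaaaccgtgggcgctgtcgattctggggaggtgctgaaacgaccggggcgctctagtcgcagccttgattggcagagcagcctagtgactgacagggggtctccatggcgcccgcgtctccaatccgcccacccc
GGAAG (or CTTCC on the other strand) occurs in the window of Il17rd, where it begins at position 99 counted from 1 at the 5′ end, but not in those of Spry1, Spry2 and Six6, and in 64.1% of the 32851 promoter windows of this length in the table. Of the FGF feedback genes, 12 were in the table, 9 of which had GGAAG in their window and 0 the longer ETS sequence CCGGAAGT, which 2.88% of all windows hold. The absence of these letters says only that they are not in these 250 bases.

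The rostral and septal factors were higher as a list. Of 15 measured members, 8 were at least 2-fold higher and 0 lower, with a median log2 ratio of 1.05. Six3, a homeobox factor needed for the rostral forebrain, stood at 193 CPM (186 to 199) against 37.8 CPM (36.0 to 39.7), a ratio of 5.09 (4.79 to 5.41). Six6, its close relative, known from the eye field and hypothalamus, stood at 21.9 CPM (19.8 to 24.3) against 0.310 CPM (0.165 to 0.531), a ratio of 70.7 (40.8 to 134). The 2 genes differed in how many cells held them: after thinning, 68.5% of the Fgf8/Fgf17 progenitors held Six3 and 11% held Six6, against 21.3% and 0.293% of the other progenitor cells. In 88 thinned erythroid barcodes, 4 held Six3 and 0 held Six6, which allows a share of up to 3.41%.

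Vax1, a ventral midline homeobox gene, had a ratio of 3.83 (2.77 to 5.32) at 5.85 CPM, and Fezf1, a zinc-finger repressor of the rostral forebrain, 2.60 at 72.7 CPM. The Zic zinc-finger genes of the dorsal and septal midline named here lay above 1: Zic4 stood at 360 against 142 CPM (ratio 2.54), Zic5 at a ratio of 2.24, Zic2 at 2.07 and Zic1 at 1.71. Zic1 was the most abundant at 506 CPM. Sp8, a zinc-finger gene of the FGF8 domain, was at 1.82 and its relative Sp5 at 1.93. Dbx1, the homeobox gene the study follows into the septum, stood at 12 CPM (10.5 to 13.8) against 4.49 CPM (3.87 to 5.18), a ratio of 2.68 (2.19 to 3.29). Fezf2 (0.842) and Nr2e1 (0.720) lay below 1.

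Pallial factors showed the reverse. Of 14 measured members, 0 were higher and 8 at least 2-fold lower, with a median log2 ratio of -1.13. Nr2f1 and Nr2f2, nuclear receptors that are low at the rostral end of the cortical primordium, were at 0.585 against 4.34 CPM and at 0.526 against 3.44 CPM. Without non-neural barcodes Nr2f1 kept a ratio of 0.136, whereas Nr2f2 had too few UMIs to count as measured, at a ratio of 0.449. Tfap2c, a factor of cortical progenitors, stood at 7.89 against 40.5 CPM (ratio 0.195) and Neurog2, the proneural factor of the pallium, at 27.8 against 119 CPM (0.233, 0.212 to 0.256). Emx1, Lhx2 and Pax6 were lower with ratios of 0.346, 0.419 and 0.496, the last of these just past 2-fold, and Emx2 was at 0.732. Neurog1 alone was above 1, at 1.25 (1.12 to 1.40). The other progenitor cells include 977 cells chosen by Emx1, and against other groups of them Neurog2 and Emx1 turned, as given below.

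The genes of the lateral subpallium differed by gene. Of 9 measured members 4 were lower and 1 higher, with a median log2 ratio of -0.90 over all cells and -0.22 without non-neural barcodes, and the list summed to 229 CPM in the Fgf8/Fgf17 progenitors and 225 CPM in the others (ratio 1.02). The lower genes were Gsx2, which specifies the lateral ganglionic eminence (6.26 against 30.9 CPM, ratio 0.202), Dlx2 (0.244), Gsx1 (0.322) and Dlx1 (0.424). Olig1 was the member past 2-fold higher, at 30.1 against 13.3 CPM (ratio 2.26). Of the 4 measured ventral factors, Otx2, a homeobox factor of the anterior midline, was higher (167 against 68.6 CPM, ratio 2.44), and Nkx2-1, which marks the ventral telencephalon, stood at 62.9 against 44.3 CPM (1.42, 1.31 to 1.53). Nkx6-2 was at 1.79 and Lmo3 at 1.28. Shh itself was held by few cells, at 0.292 CPM in the Fgf8/Fgf17 progenitors and 0.859 CPM in the others.

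In the hedgehog pathway, Gas1 and Boc, co-receptors of SHH, were lower with 223 against 450 CPM (ratio 0.495) and 10.8 against 22.2 CPM (0.484), and Cdon, the third co-receptor, was at 0.529. Gli1, a target of the pathway, was at 4.39 against 2.22 CPM (ratio 1.98, 1.44 to 2.71). Of the 9 measured members none was past 2-fold higher over all cells, and without non-neural barcodes Gli1 was just past 2-fold higher and Cdon (0.486) just past 2-fold lower.

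Secreted WNT proteins differed by gene rather than as a list. Of 10 measured WNT ligands, R-spondins and hem factors, 1 was higher and 4 lower. The limit on Wnt3a, Wnt2b and Rspo2 left cells with these genes among the others, so that lower levels of hem genes are set in part by the choice. Wnt1 stood at 4.56 against 0.764 CPM (ratio 5.97, 3.91 to 9.32), whereas Wnt7a stood at 1.40 against 13.2 CPM (0.106, 0.0674 to 0.160). Rspo3, an R-spondin that amplifies WNT signalling, was at 22.3 against 67.7 CPM (0.330), and Lmx1a, a factor of the hem and roof plate, at 0.422 (0.665 without non-neural barcodes). Among receptors, antagonists and targets, 3 of 22 were higher and 5 lower. Beside Notum, Fzd5, a frizzled receptor of the eye field and hypothalamus, was higher (5.67 against 1.62 CPM, ratio 3.49), and the antagonists Wif1 (0.314) and Dkk3 (0.326) were lower.

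Of 19 measured BMP pathway genes, 4 were higher and 3 lower, and without non-neural barcodes 3 of 18 were higher and 3 lower. Bmp4 stood at 8.42 against 3.15 CPM (ratio 2.67, 2.1 to 3.41) and Gdf5 at 5.44 against 2.08 CPM (2.62), together with their antagonist Grem1. Msx2, a target of BMP signalling, stood at 0.526 against 5.01 CPM (ratio 0.105, 0.0474 to 0.203). In the retinoid pathway, Stra6, the membrane carrier that takes up retinol, was higher (14.2 against 3.13 CPM, ratio 4.54, 3.66 to 5.66), and 3 of 8 measured members were lower, with a median log2 ratio of -0.60 over all cells and 0.12 without non-neural barcodes. Among these were Rarb (0.264) and Crabp1 (0.333), the latter of which had a ratio of 1.5 without non-neural barcodes.

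No gene of the cell cycle phases was past 2-fold. All 38 S phase genes were measured and lay between ratios of 0.787 and 1.06, with a median log2 ratio of -0.16. The 51 genes of G2 and mitosis lay between 0.771 and 1.24 with a median of 0.02. Of 12 D cyclins and cell cycle inhibitors, Cdkn2c, an inhibitor of CDK4 and CDK6, was lower at 7.78 against 18.5 CPM (ratio 0.419). Cdk6, Cdkn1a and Cdkn1c were at 1.58, 1.46 and 1.40.

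Genes that come on as neuroepithelium turns into radial glia were lower in part. Of 12 measured members, 5 were lower and 1 higher, with a median log2 ratio of -0.66. Hopx stood at 0.409 against 3.70 CPM (ratio 0.111, 0.0438 to 0.233), Acsbg1 at 2.57 against 14.8 CPM (0.174), Ednrb, the endothelin receptor B, at 0.274 and Aldoc, a glycolytic enzyme of glia, at 15.8 against 55.5 CPM (0.286). The direction of Aldoc turned against some groups of the other progenitor cells, given below. Fabp7, the radial glial fatty acid binding protein, stood at 556 against 1276 CPM, but it is part of the sum A that the rule used. None of 14 early neuroepithelial genes was past 2-fold: Crabp2 was at 0.509 (0.484 without non-neural barcodes), Sox21 at 0.580, Prtg at 1.66 and Sox1 at 1.53. The 2 sets of embryos differed in stage, E11.5 and E12.5, and cells of each cannot be told apart beyond the reporters described below.

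Neurog2 was the only one of 14 measured past 2-fold, and Eomes, the factor of cortical basal progenitors, was at 3.98 against 7.57 CPM (ratio 0.526, 0.398 to 0.685), close to Nhlh1 at 0.518. The Notch ligand Dll3 was at 1.77 and Hes6, an inhibitor of HES1, at 333 against 194 CPM (1.72, 1.66 to 1.77). Of the Notch targets, Hey1 was lower at 22.7 against 50.1 CPM (0.454) and Hey2 at 0.462 (0.506 without non-neural barcodes), whereas Hes1, which belongs to the sum A, stood at 218 against 114 CPM. Jag1 was at 3.74 against 5.04 CPM (0.743, 0.553 to 0.987).

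Pcdh8, the protocadherin that the study examines together with Dbx1, stood at 8.30 CPM (6.99 to 9.79) in the Fgf8/Fgf17 progenitors and 8.40 CPM (7.55 to 9.33) in the others, a ratio of 0.988 (0.808 to 1.2). To the groups described below, its ratio was 1.59 (1.21 to 2.09) for Emx1 cells and 6.44 (1.14 to 256, from 1 UMI) for hem cells. For the Six3, Nkx2-1 and Gsx2 cells it was 1.01, 0.998 and 1.46, with intervals that spanned 1. Of 15 measured protocadherins and cadherins, 1 was higher and 3 lower, where 3.73% of all measured genes were higher and 2.5% lower. Pcdh7 stood at 14.2 against 4.80 CPM (ratio 2.96, 2.45 to 3.59), and Pcdh9 at 4.56 against 17.7 CPM (0.257, 0.201 to 0.325), Pcdh17 at 0.387 and Pcdh10 at 0.497. Among ephrins and their receptors, Efnb1 was lower at 66.5 against 202 CPM (0.330), Epha5 at 0.442 and Efnb2 at 0.511 (0.489 without non-neural barcodes), and Ephb3 was higher at 2.11. Of 22 guidance genes 5 were higher and 2 lower: Slit2, a midline repellent of axons, stood at 72.5 against 20.2 CPM (ratio 3.58, 3.28 to 3.92) and the netrin receptor Unc5b at 17.2 against 5.42 CPM (3.17). Slit2 and Pcdh7 stood higher still in cells chosen by hem genes, given below. Robo3 was lower (0.299), and Cxcl12, lower at 0.213 over all cells, was at 0.737 without non-neural barcodes. Of the immediate early genes, which mark dissociation stress, 0 of 15 were higher and 1, Nr4a1, was lower (0.458, and 0.742 without non-neural barcodes).

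Markers of other cell types were examined for the whole of each list, those of blood and macrophages as given above. Of 8 measured mesenchyme markers 6 were lower and 0 higher, with a summed level of 61.8 against 106 CPM, most of it Prrx1 in the Fgf8/Fgf17 progenitors. Without non-neural barcodes, whose choice used these markers, 1 of 4 was lower and 1 higher. Of 2 measured endothelium markers none was past 2-fold, with 15.6 against 18.9 CPM in all. Of 4 measured markers of surface and placodal ectoderm, 3 were higher: Epcam, an epithelial adhesion molecule, at 72.6 against 17.4 CPM (ratio 4.18, 3.81 to 4.59), Krt8 (3.90) and Krt18 (3.23). The list summed to 97.7 against 30.4 CPM, and the defining genes Cdh1 and Trp63 were at 1 UMI each in the 1136 cells. Of 5 measured Cajal-Retzius markers, Lhx5 (97.2 against 18.7 CPM, ratio 5.21) and Reln (2.91) were higher, with a summed level of 118 against 34.8 CPM, most of it Lhx5. Of the 2 measured markers of GABAergic neurons, 1 was higher and 1 lower: Gad2, which makes GABA, was at 7.37 against 0.644 CPM (ratio 11.4, 7.5 to 18), and Isl1, a LIM homeobox gene, at 3.80 against 8.00 CPM (0.475, 0.359 to 0.622). Gad1 was not measured, with 4 against 9 UMIs. Of the eye and hypothalamus markers Pax2 was higher and Rax was at 2.05 against 2.15 CPM (0.953). The 4 measured markers of glutamatergic neurons all lay under 1, between 0.593 and 0.952.

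Set against groups of other progenitor cells named by the gene that chose them (at least 2 UMIs), the Fgf8/Fgf17 progenitors differed for some genes and not for others. The groups chosen by Nkx2-1, Gsx2, Emx1 and the hem genes hold only cells that met 1 of these 4 conditions, whereas the group chosen by Six3 may overlap with them. The erythroid markers summed to 4227 CPM in the Fgf8/Fgf17 progenitors against 505 CPM in the Six3 group, 602 in the Nkx2-1 group, 501 in the Gsx2 group, 4493 in the Emx1 group and 610 in the hem group. Without non-neural barcodes the Fgf8/Fgf17 progenitors were at 579 CPM and these groups between 501 and 622 CPM. Cells with at least 2 UMIs of Six3 and none of Fgf8 or Fgf17 (216 cells) held Six3 at 169 CPM, close to the 193 CPM of the Fgf8/Fgf17 progenitors, as their choice requires. They nevertheless held Spry1 at 65.2 CPM (ratio 3.78, 3.32 to 4.32), Il17rd at 19.3 CPM (4.29, 3.39 to 5.51) and Six6 at 0.265 CPM, 1 UMI in all. Without non-neural barcodes these ratios were 3.81 for Spry1 and 4.27 for Il17rd. Against cells with Nkx2-1 (204 cells), the ratios were 2.28 for Spry1, 1.93 for Spry2 and 4.33 for Il17rd, and 0.714 (0.377 to 1.47) for Spry4. Several genes that were higher than in the other progenitor cells as a whole were lower than in these Nkx2-1 cells: Dbx1 stood at 12 against 26.8 CPM (ratio 0.450, 0.343 to 0.595), Wnt1 at 0.420, Olig1 at 0.577 and Otx2 at 0.877 (0.799 to 0.964). Gli1 was at 0.311 and Fgf15 at 0.599, and Slit2, at 0.902 (0.781 to 1.05), did not differ beyond the counting interval. Without non-neural barcodes the ratios to the Nkx2-1 cells were 2.29 for Spry1, 4.31 for Il17rd, 0.455 for Dbx1 and 0.883 for Otx2. Cells with Emx1 (977 cells) had the lowest levels of Six3, at 7.05 CPM, and of Fgf15, at 16.3 CPM, apart from the hem cells for the latter. Some genes that were lower than in the other progenitor cells as a whole turned the other way. Neurog2, at 27.8 CPM, stood above the Six3 (11.4 CPM), Nkx2-1 (7.60) and Gsx2 groups (9.47) and below the Emx1 group (223). Aldoc, at 15.8 CPM, was at 8.75, 6.51, 8.66 and 105 CPM in the same groups. Emx1 had ratios of 1.74 to the Six3 group and, with Emx1 limited by their choice, 4.22 and 2.82 to the Nkx2-1 and Gsx2 groups.

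The highest levels of Spry1 and Dusp6 among these groups were those of cells with at least 2 UMIs of Wnt3a, Wnt2b and Rspo2. In all, 132 progenitor cells held them, and 57 of these held fewer than 2 UMIs of Nkx2-1, Gsx2 and Emx1 each. In the 57 cells Spry1 was at 253 CPM (ratio 0.975, 0.845 to 1.13), Spry2 at 49.0 CPM (1.17, 0.847 to 1.66), Dusp6 at 147 CPM (1.14) and Zic4 at 362 CPM (0.992, 0.880 to 1.12), none of which differed from the Fgf8/Fgf17 progenitors beyond the counting interval. Over all 132 cells the ratios were 1.11 (1.01 to 1.22) for Spry1, 1.86 (1.45 to 2.43) for Spry2, 1.06 (0.947 to 1.19) for Dusp6 and 1.23 (1.13 to 1.33) for Zic4, so that of these genes Dusp6 alone did not differ beyond the counting interval in both sets. The 57 cells also held Fgf17 at 593 CPM and Fgf8 at 134 CPM, and all 132 at 357 and 61.6 CPM, as 51 of the 1187 progenitor cells with at least 3 UMIs of Fgf8 and Fgf17 were left out by the limit on hem genes alone. Fgf15 was at 0 UMIs in the 57 cells and at 15 UMIs in the 132, and Bmp4 at 72.2 and 48.1 CPM. Slit2 was at 117 CPM in the 57 cells (ratio 0.617, 0.499 to 0.772) and Pcdh7 at 36.1 CPM (0.393, 0.265 to 0.605). Otx2 (0.675) and Zic5 (0.680) also stood above the Fgf8/Fgf17 progenitors. Unc5b (1.03), Stra6 (0.847) and Lhx5 (0.898) did not differ beyond the counting interval. Il17rd (2.30), Six3 (1.74) and Epcam (2.96) were higher in the Fgf8/Fgf17 progenitors. Six6, Pax5 and Pax8 were at 0 UMIs in the 775303 UMIs of the 57 cells, where 3 UMIs would make 3.87 CPM, and at 2, 1 and 0 UMIs in the 132 cells. Pmaip1 was at 29.7 CPM in the 57 cells (ratio 0.986, 0.649 to 1.57) and Grem1 at 5.16 CPM (0.759, 0.283 to 2.87). Neither differed beyond the counting interval, nor did Gfra2 (2.72, 0.916 to 13.3). Fgf18 (2.25, 1.33 to 4.13) and Notum (3.66, 1.24 to 17.9) were lower in the 57 cells.

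**Figure D2:**
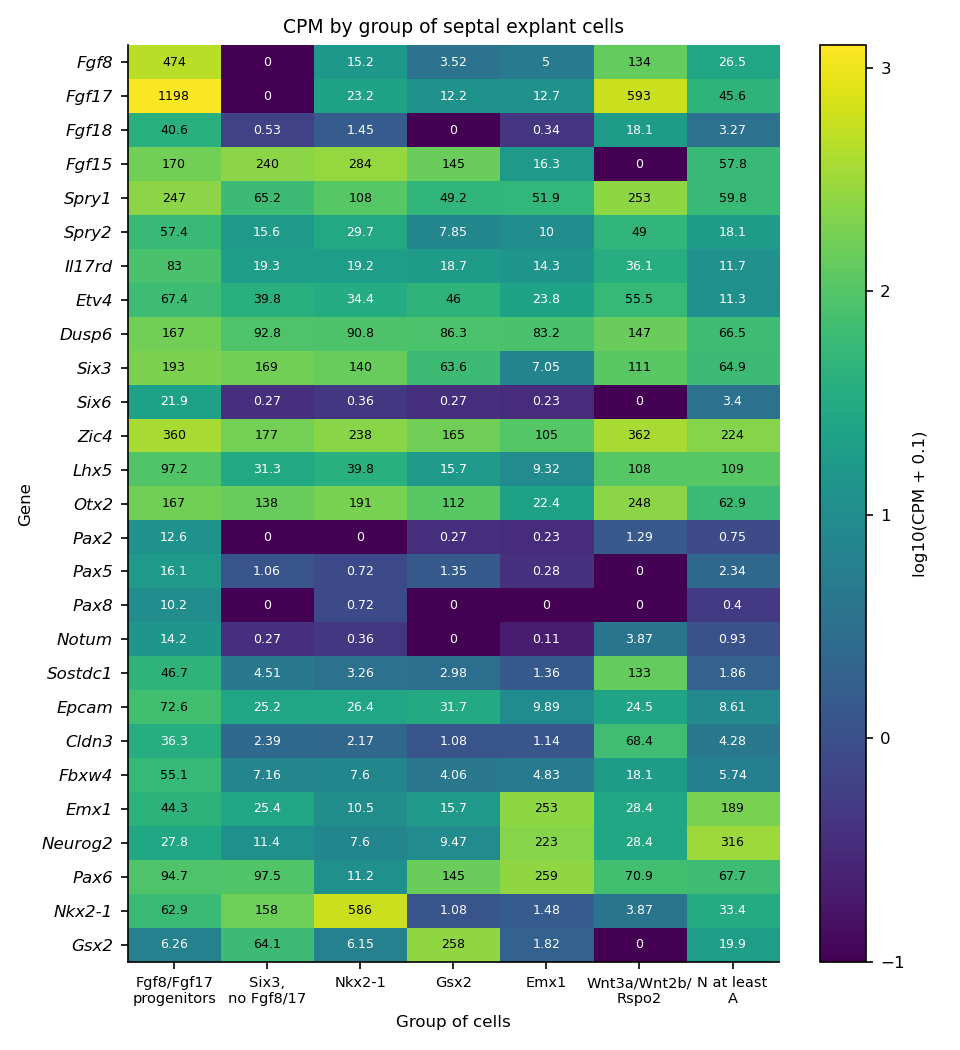
CPM (colour, log10 scale, with the value printed) of selected genes in the Fgf8/Fgf17 progenitors, in 5 groups of other progenitor cells named by the gene that chose them (57 cells for the hem genes), and in cells whose neuronal sum N is at least A. Spry1 is at 247 and 253 in the Fgf8/Fgf17 and Wnt3a/Wnt2b/Rspo2 columns and at most 108 in the other columns, whereas Six6 reaches 21.9 in the first column and at most 3.4 elsewhere.

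Levels of several genes were graded with the amount of Fgf8 and Fgf17, the sum the rule used, and are given as a description. Progenitor cells were binned by Fgf8 and Fgf17 UMIs per 10000 UMIs: none (1924 cells), above 0 to 2 (708), 2 to 4 (195), 4 to 8 (206), and 8 and over (774, of which 753 were Fgf8/Fgf17 progenitors). Over these bins Spry1 went from 49.9 through 79.4, 164 and 199 to 304 CPM. Il17rd went from 14.6 through 19.4, 30.7 and 48.2 to 111 CPM. Six3 went from 30.6 through 54.4, 106 and 118 to 242 CPM. Each of the 3 was highest in the last bin and lowest in the first, with intervals that did not overlap between those bins.

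Others were found mainly at the high end or ran the other way. Six6 was at 0.239 CPM in the first bin, 6.88 CPM in the fourth and 32.1 CPM in the last, and Notum at 0.102, 0.938 and 22.5 CPM in the same bins. Etv5 went only from 43.8 to 57.7 CPM and Etv1 from 25.5 to 27.0 CPM between the first and the last bin. Emx1 went from 128 to 34.0 CPM and Neurog2 from 133 to 16.5 CPM, the latter not evenly, with 43.1 CPM in the third bin and 56.9 CPM in the fourth. Nkx2-1 was highest in the third bin, at 98.7 CPM, and at 39.0 and 42.9 CPM in the first and the last.

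**Figure D3:**
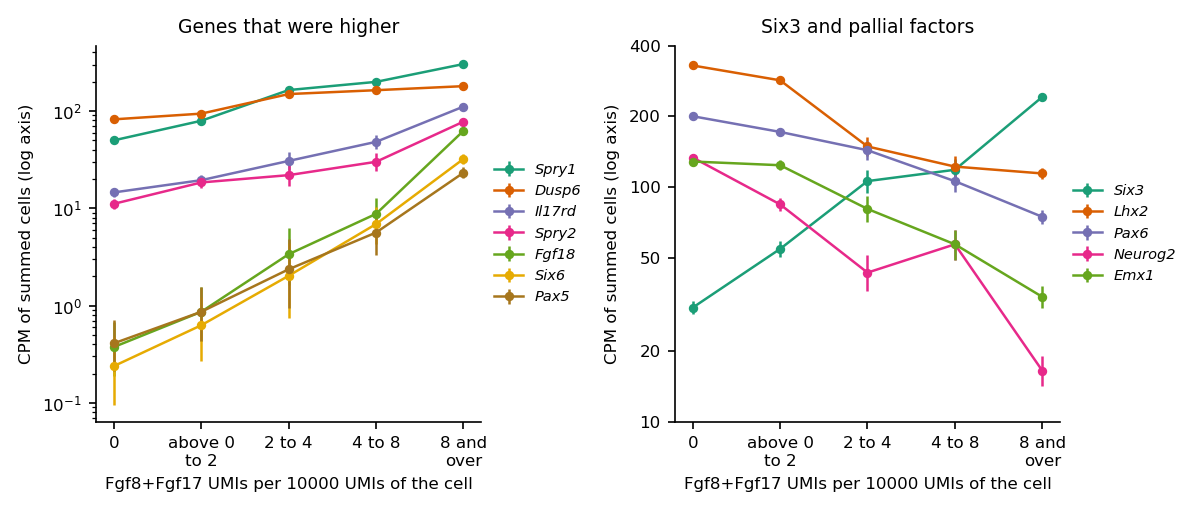
CPM (log axis, with exact Poisson 95% intervals) of selected genes in progenitor cells of the septal explants binned by their Fgf8 and Fgf17 UMIs per 10000 UMIs. Spry1 climbs from 49.9 to 304 CPM and Six6 from 0.239 to 32.1 CPM from the first bin to the last, and Emx1 goes down from 128 to 34.0 CPM.

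At the threshold itself, the 73 cells with exactly 3 UMIs of Fgf8 and Fgf17 held Spry1 at 133 CPM and Six3 at 126 CPM, and the 166 cells just outside with 2 UMIs held them at 94.1 and 75.4 CPM. Emx1 was at 55.5 CPM inside and 97.6 CPM outside.

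Among the 1136 cells, Fgf17 was the more common and the more abundant ligand. Fgf17 had a median of 13 UMIs per cell (highest 115) and Fgf8 a median of 2 (highest 77). Both were held by 706 cells (62.1%), Fgf17 alone by 411 (36.2%) and Fgf8 alone by 19 (1.67%). Cells with Fgf17 alone had a median of 15150 UMIs, and cells with both 12230. Whether Fgf8 was missed in the former by sampling was not tested. The cells with Fgf17 alone held Fgf17 at 665 CPM, Six6 at 1.43 CPM, Fgf18 at 4.16 CPM, Spry1 at 175 CPM and Emx1 at 65.8 CPM. The cells with both held Fgf17 at 1605 CPM, Six6 at 36.0 CPM, Fgf18 at 67.0 CPM, Spry1 at 296 CPM and Emx1 at 30.3 CPM. Fgf8 divided these cells and both ligands chose them, so the values are a description.

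Pax2, Pax5 and Pax8 marked a fraction of the cells. In all, 359 of the 1136 cells held a UMI of any of the 3 genes (31.6%), against 1.2% of the other progenitor cells, and after thinning the shares were 22.8% and 0.795%, with 0 of 88 erythroid barcodes. They were split into 777 cells with none, 210 with 1 UMI and 149 with at least 2, whose median UMIs were 13573, 12269 and 14044. Globin moved with the split, as 9, 0 and 8 cells of the 3 sets were among the non-neural barcodes, and the 9 erythroid markers summed to 3293, 596 and 13215 CPM, most of it Hbb-y. Without these 17 cells the erythroid sums were 570, 596 and 601 CPM. Over these 3 sets Fgf8 stood at 231, 737 and 1345 CPM, and Fgf17 at 944, 1566 and 1996 CPM. Both genes chose the cells, and the Pax genes were taken up here because their ratios to the other progenitor cells were high, so these levels are a description. Fgf18 stood at 20.7, 59.1 and 115 CPM, Six6 at 7.99, 39.3 and 69.0 CPM, and Six3 at 151, 250 and 326 CPM. Without the 17 cells the ratio of the last set to the first was 5.45 for Fgf18, 8.95 for Six6 and 2.17 for Six3.

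Several genes followed the same order. Notum stood at 3.91, 24.6 and 51.6 CPM, a ratio of 13.2 (9.34 to 18.9) between the last set and the first, and Bmp4 at 3.23, 8.55 and 33.7 CPM (10.4, 7.01 to 15.8). Igfbp5, an insulin-like growth factor binding protein, stood at 59.2, 134 and 268 CPM and Bcam, a laminin-binding adhesion molecule, at 12.1, 40.3 and 115 CPM. Fabp7 ran the other way, from 664 through 375 to 246 CPM. Without the 17 non-neural barcodes the ratios were 13.2 for Notum, 8.90 for Bmp4, 4.24 for Igfbp5, 9.31 for Bcam and 0.387 for Fabp7. En1, En2 and Gbx2, which join Pax2 and Pax5 at the midbrain-hindbrain boundary, had 1 UMI each in all 1136 cells. Of the 182 cells that held Six6, 65.4% (58.0 to 72.3) held a UMI of the 3 Pax genes, against 25.2% (22.4 to 28.0) of those without Six6. The median UMIs were 11187 in cells with Six6 and 13738 in cells without, and the part of depth was not tested.

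**Figure D4:**
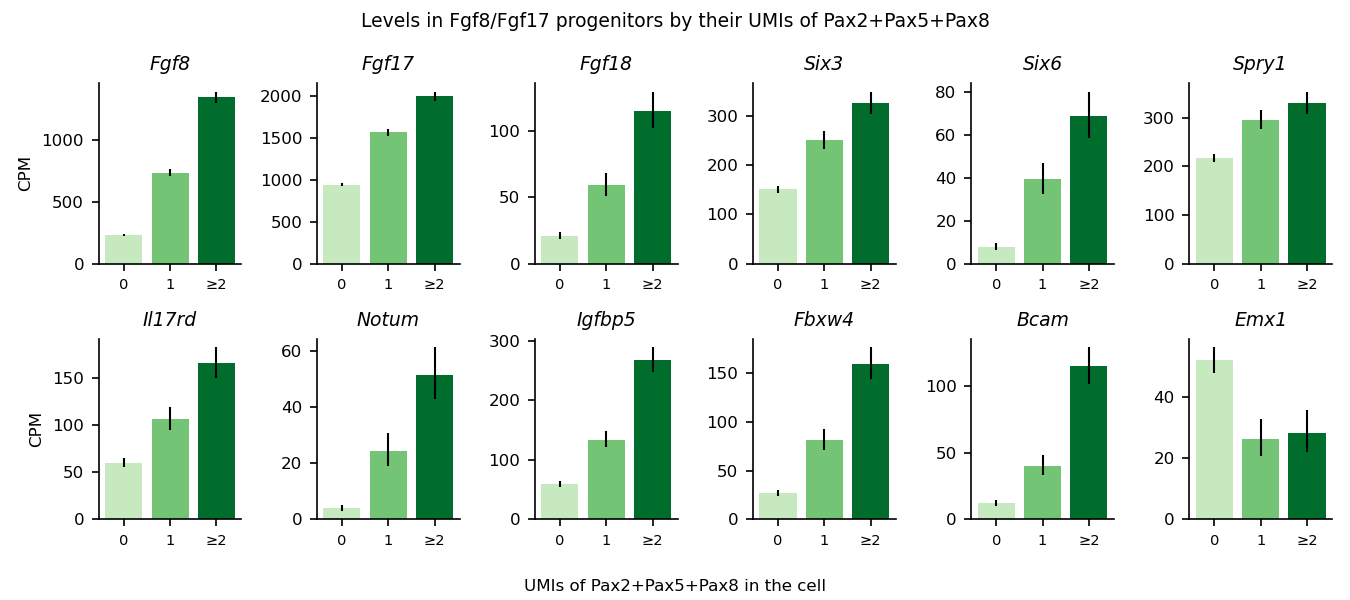
CPM (bars from 0, with exact Poisson 95% intervals) of 12 genes in Fgf8/Fgf17 progenitors with 0 (777 cells), 1 (210 cells) or at least 2 (149 cells) UMIs of Pax2, Pax5 and Pax8. Fgf8 goes from 231 to 1345 CPM and Notum from 3.91 to 51.6 CPM, and Emx1 is highest, at 52.1 CPM, in cells with none.

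A second division ran between cells with Nkx2-1 and cells with Emx1. Nkx2-1 without Emx1 was held by 144 cells and Emx1 without Nkx2-1 by 317, and 35 cells held both, where the product of the shares gives 55.5. The Nkx2-1 cells held Six6 at 68.3 CPM against 8.42 CPM in the Emx1 cells (ratio 8.11), Dbx1 at 36.2 against 6.01 CPM (6.02, 3.96 to 9.31) and Wnt1 at 23.3 against 2.06 CPM (11.3, 5.87 to 23.5). Olig1 (3.76), Ptch1 (4.46) and Spry2 (2.73) were higher in the Nkx2-1 cells too. So were the erythroid markers, at 9114 against 6053 CPM, the neuronal gene Stmn2 of the sum N, at 320 against 110 CPM (2.91), and Gad2, at 15.5 against 2.41 CPM (6.45). The whole sum N, which includes Stmn2, was at 722 against 570 CPM (1.27, 1.19 to 1.35). Without non-neural barcodes (2 and 5 cells) the erythroid markers were at 583 and 549 CPM and the ratios were 2.92 for Stmn2, 6.42 for Gad2, 8.59 for Six6, 5.82 for Dbx1, 11.2 for Wnt1 and 2.75 for Spry2. The part of the neuronal genes in these differences was not tested. The Emx1 cells held Wnt8b at 138 against 8.28 CPM, Rspo3 at 43.5 against 2.59 CPM, Pax6 at 161 against 17.6 CPM and Stra6 at 13.7 against 3.1 CPM. Fgf17 was at 778 CPM in the Nkx2-1 cells and 1065 CPM in the Emx1 cells, and Fgf8 at 530 and 272 CPM. A single UMI placed a cell in these sets, and the part of free RNA in them was not tested. Of the 204 other progenitor cells chosen above by Nkx2-1, with fewer than 2 Emx1 UMIs each, 14.2% held an Emx1 UMI.

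The reporters tell in part from which embryos the cells came. YFP, the mark of the E11.5 embryos, was held by 71.4% of the Fgf8/Fgf17 progenitors (68.7 to 74) and by 70.0% of the other progenitor cells (68.2 to 71.7). tdTomato was held by 8.36% (6.82 to 10.1) and 5.47% (4.63 to 6.4), and 32 of the 1136 cells held both reporters, although no embryo carried both. A UMI of a reporter therefore does not place a single cell. Of the 95 cells with tdTomato, 20 held Dbx1. Within cells with YFP, the ratio to other progenitor cells with YFP was 3.67 for Spry1, 4.99 for Il17rd and 4.77 for Six3, and within cells without YFP it was 4.61, 5.16 and 6.07. The ratios for Emx1 were 0.371 and 0.299. Some genes differed more between the 2 splits. Rspo3 was at 0.264 with YFP and 0.718 without, Spry4 at 1.63 and 3.93, and Wnt8b at 0.871 and 1.38. Wnt1 was at 4.06 and 20.1, the latter from 4 UMIs in the other progenitor cells.

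The rule was applied unchanged to the library of the whole telencephalic vesicle. It found 508 cells of 8526 progenitor cells there. The kits (version 2 for the septal explants, 3.1 for the vesicle) and the versions of Cell Ranger differed, and 1 barcode was shared between the libraries. Ratios were therefore computed within each library and no level is compared. The chosen cells held from 723 to 169848 UMIs in the vesicle and from 3962 to 69624 in the septal explants, under the same minimum of 3 UMIs. Of 12775 measured genes, 366 were at least 2-fold higher (2.86%) and 450 lower (3.52%) than in the other progenitor cells of the vesicle. Of the 11247 genes measured in both libraries, 166 were higher in both, which is 49.6% of the 335 higher in the septal explants and 59.7% of the 278 higher in the vesicle. Lower in both were 180, which is 74.4% of 242 and 64.5% of 279. Blood and mesenchyme markers were lower in both libraries, all 9 erythroid markers in each among them, and without non-neural barcodes in either library 117 genes were lower in both (68.0% of 172 and 57.6% of 203) and 166 higher (52.9% of 314 and 56.1% of 296). Adgra1 alone was past 2-fold in opposite directions.

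The median log2 ratio lay farther from 0 in the vesicle for the FGF feedback list and nearer to 0 for the pallial list. Of 13 measured feedback genes 8 were higher, with a median log2 ratio of 1.56: Spry1 had a ratio of 8.16, Il17rd 7.99, Etv4 7.23, Spry2 5.76, Dusp6 4.07 and Etv5 2.95. Of the 12 genes with the highest ratios in the septal explants, 4 passed the filter on low counts there: Pax5 (ratio 53.8), Pax2 (30.8), Fgf18 (30.8) and Pmaip1 (7.56, 5.99 to 9.51, where the septal explants had 18.8). Rostral and septal factors had a median of 1.29, with 9 of 15 higher and 1 lower, Zic4 at 6.19 and Six3 at 3.27. Pallial factors had a median of -0.64 with 5 of 14 lower. Dbx1 was at 1.09 (0.821 to 1.42) in the vesicle and Bmp4 at 0.673, where the septal explants had 2.68 and 2.67. The other progenitor cells of the vesicle come from all of its wall, a wider set than those of the septal explants, and this difference in what the cells were compared with cannot be told apart from a difference between the cells. The same holds for the differences in kit and in the range of UMIs per cell.

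**Figure D5:**
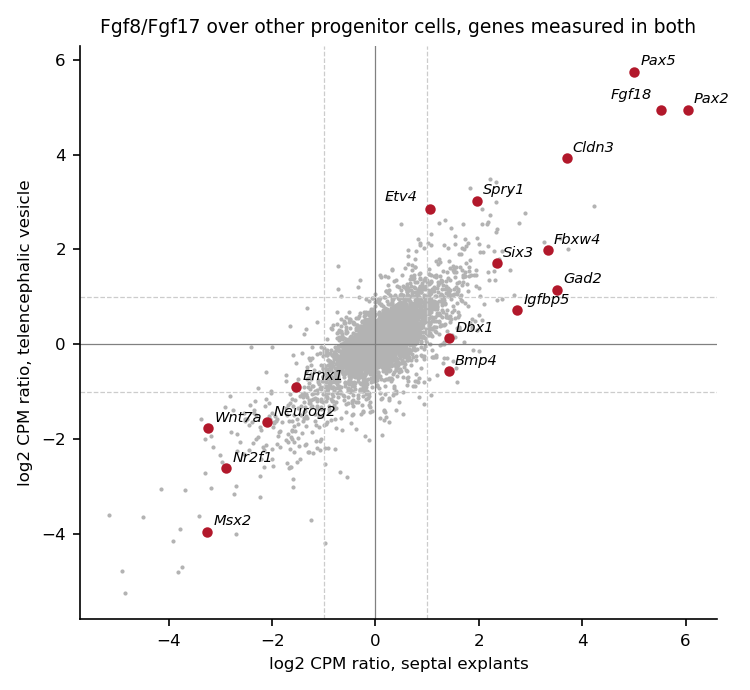
Log2 CPM ratio of Fgf8/Fgf17 progenitors over other progenitor cells in the septal explants (x axis) and in the telencephalic vesicle (y axis) for genes measured in both libraries (grey points, named genes in red; dashed lines mark 2-fold; genes with 0 UMIs in a group are not drawn). Pax2, Pax5 and Fgf18 lie at the upper right in both libraries, Msx2 and Nr2f1 at the lower left, and Dbx1 and Bmp4 are past 2-fold on the x axis only.

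Genes that lie next to Fgf8 and Fgf17 were looked up in GRCm38 with GENCODE M21. Within 1000 kb of Fgf17 (chr14:70636203-70642268, minus strand), 6 of 20 measured genes were at least 2-fold higher and 0 lower, where 3.73% of all measured genes were higher and 2.5% lower. Dmtn, at chr14:70601263-70636048 with its start 6.22 kb from that of Fgf17, stood at 22.4 against 4.46 CPM (ratio 5.02, 4.20 to 6.01). It begins just past the 3′ end of Fgf17 on the same strand. Fgf17 chose the cells, and the part of this arrangement in the ratio of Dmtn was not tested. Gfra2, the neurturin receptor, with its start 248 kb away at chr14:70890120-70979838, stood at 10.5 against 0.310 CPM (33.9, 19.3 to 65.0). Within 1000 kb of Fgf8 (chr19:45736798-45742915, minus strand), 4 of 32 were higher and 0 lower. Fbxw4, an F-box gene at chr19:45578254-45660312, with its start 82.6 kb from that of Fgf8, stood at 55.1 against 5.47 CPM (ratio 10.1, 8.72 to 11.7), and Npm3, with its start 6.68 kb away, at 446 against 168 CPM (2.66, 2.57 to 2.75). The start of Pax2 lies 987 kb from that of Fgf8 and is the farthest of the 4.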

How the data were processed

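Raw UMI counts per gene and cell barcode were deposited by the authors, 1 matrix per library; per the submitters' processing notes they came from Cell Ranger 2.1.1 for the septal explants (mm10 with reporter sequences added) and 7.1.0 (mm10) for the vesicle. Doublets were not removed: Scrublet marked 53 of 5827 barcodes (0.910%). Counts were summed over cells and given as CPM with exact 95% intervals (scipy 1.17.1 and numpy 2.4.6 in Python 3.11.15; Scrublet from scanpy 1.11.5). The calculation was tested on simulated data. Shares were also computed with each cell thinned to 8000 UMIs, leaving out 123 of the 1136 cells and 281 of the 2671. The whole septal library held 83103280 UMIs and the vesicle library 194821794. The cells and gene lists were chosen with earlier results of these data known. The rule for naming genes took the 12 highest and 12 lowest ratios, the measured FGF ligands, feedback genes and rostral factors, up to 4 of each other list, Dbx1 and Pcdh8; some listed genes that the counts include are not reported here. Other genes named, and the split by Pax genes, were chosen after their values were seen. Sex-linked genes were left out. Alternatives changed the thresholds, weighting and cells used.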

Additional observations from a re-analysis of the deposited data

Results flagged for a closer look

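A Cre cassette sequence (named IRESCRE in the gene file) that no comparison used had 9 UMIs in 8 of the 1136 Fgf8/Fgf17 progenitors, above the 3 counts that a count of 0 allows. It had 2 UMIs in 2 of the 2671 other progenitor cells. Over all 5827 barcodes it had 27 UMIs in 25 cells, 12 of which held tdTomato and 11 Dbx1. The reason for the difference was not tested.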

How the results depend on the processing

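No paired analysis was possible because each condition is 1 library. The medians of the FGF feedback, rostral and pallial lists kept their sign under the 12 alternatives run for them. Without non-neural barcodes, 1 of 82 listed genes past 2-fold lay on the other side of 1 (Crabp1, at 0.333 and then 1.5), and the medians of 4 of 23 lists changed sign, among them the retinoid list (from -0.60 to 0.12). Leaving these barcodes out of the subsets, the group comparisons and the overlap with the vesicle, and taking all cells with hem genes, were also chosen after seeing the data. The counts of genes at least 2-fold higher (444) and lower (298) were 250 and 178 in cells without a YFP UMI, 787 and 571 with a minimum of 5 expected UMIs, 254 and 175 with 50, and 1067 and 582 at a fold of 1.5; without non-neural barcodes, an alternative chosen after seeing the data, 195 genes were lower. The other 11 and 10 of 15 alternatives stayed within 1.5 times. The median log2 ratio of FGF feedback genes was 0.86 with at least 2 UMIs of Fgf8 and Fgf17, and that of rostral factors 1.25 without the limit on hem genes. The median of pallial factors was -1.32 with thinned cells, -1.25 as a mean of CPM per cell, -1.05 in cells with YFP and -1.31 in cells without. The share of 29.8% became 34.2% with at least 2 UMIs and 26.2% with at least 5. The cause of each shift was not tested. A gene under about 20 expected UMIs was not measured, and the spread between embryos is unknown.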
